A study of Mus musculus with 8 samples.

Results

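Buccal mucosa, the lining of the inner cheek, was compared with dorsal tongue, the upper surface of the tongue, in tomo-seq profiles of mouse oral mucosa. Tomo-seq reads expression through a block of tissue by barcoding the RNA of each serial section on its own. The comparison was defined by tissue label and used 4 of the 8 samples of the series, 2 replicates of buccal mucosa against 2 replicates of dorsal tongue, and the remaining samples were 2 each of hard palate and ventral tongue. Every mouse was wild-type and of the strain C57BL/6J, and no treatment is named in the labels. Each sample comprised 20 sections, each 14 µm thick, so that 280 µm of tissue was covered. Counts of unique molecular identifiers (UMIs, tags that mark single captured transcripts) were added up across the 20 sections of each sample, and again across sections 1 to 5, to ask which genes set the cheek lining apart from the upper tongue. Whether replicates came from separate animals is not in the labels. The p-values therefore reflect only how far these samples spread, which may be technical. The sources used here do not say which side of the tissue section 1 faced.

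Oral mucosa is a stratified squamous epithelium on connective tissue, and its form differs by site. Buccal mucosa is a lining mucosa, soft and stretchable, with minor salivary glands and muscle beneath it. Dorsal tongue is a specialised mucosa covered by filiform papillae, keratinised cones whose cells make hair-type keratins and the keratin-associated proteins (Krtap) that crosslink them in hair shafts. The papillae renew continuously from basal cells, and Wnt signals through the factor Lef1 are known to drive hair-type differentiation in skin.

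The total was 16878956 and 7830471 UMIs in buccal mucosa replicates 1 and 2, against 21230278 and 20325813 in the dorsal tongue replicates. Levels below are UMIs of a gene per 1000000 UMIs of the library (CPM), scaled by edgeR's TMM factors. Buccal replicate 2 stood apart. Its Spearman correlation across genes was 0.838 with buccal replicate 1 and 0.808 with each dorsal tongue library, whereas buccal replicate 1 correlated at 0.941 and 0.951 with the dorsal tongue libraries and these at 0.976 with each other. The 24 pan-squamous keratinocyte genes summed to 12194 and 941 CPM in buccal replicates 1 and 2, against 12777 and 14479 CPM in dorsal tongue. The suprabasal lining keratin Krt13 was at 4308 and 68.3 CPM in buccal mucosa, against 4140 and 4450 CPM in dorsal tongue. Krt13 reached 4146 UMIs in 1 section, at the ceiling on counts described below. Its CPM thus understate how far buccal replicate 2 lay below the other libraries. In reads per 1000000 reads Krt13 was at 96908 and 30.9 in buccal mucosa, against 59458 and 87727 in dorsal tongue. Transcripts of squamous epithelium, the layer that defines a mucosa, were thus scarce in the second buccal library.

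Genes of other tissues filled that library instead. Salivary gland markers summed to 552 and 29398 CPM in buccal replicates 1 and 2, against 365 and 541 CPM in dorsal tongue. The mucin Muc5b was at 2.22 and 7554 CPM in buccal mucosa, against 0.421 and 1.98 CPM in dorsal tongue. Muscle fibre genes summed to 30742 and 83138 CPM in buccal mucosa, against 34438 and 34152 CPM in dorsal tongue. Adipocyte genes summed to 1649 and 8673 CPM in buccal mucosa, against 1614 and 2003 CPM in dorsal tongue. Mitochondrial transcripts took 2.81% and 7.20% of UMIs in buccal mucosa, against 2.78% and 3.02% in dorsal tongue. Counts of 1 gene in 1 section stopped near 4096 UMIs, so the mitochondrial shares depend in part on library depth. For mt-Nd4 the UMIs were 70229 and 77727 in buccal mucosa, against 77697 and 77931 in dorsal tongue. In reads per 1000000 reads mt-Nd4 was at 30285 and 64800 in buccal mucosa, against 35961 and 41605 in dorsal tongue. The comparison asks for differences that both buccal samples showed, and the tests were repeated without replicate 2. The part of tissue composition in the results was not tested beyond the values given beside them, and in sums over sections fewer cells of a type and less RNA per cell cannot be told apart.

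**Figure D1:**
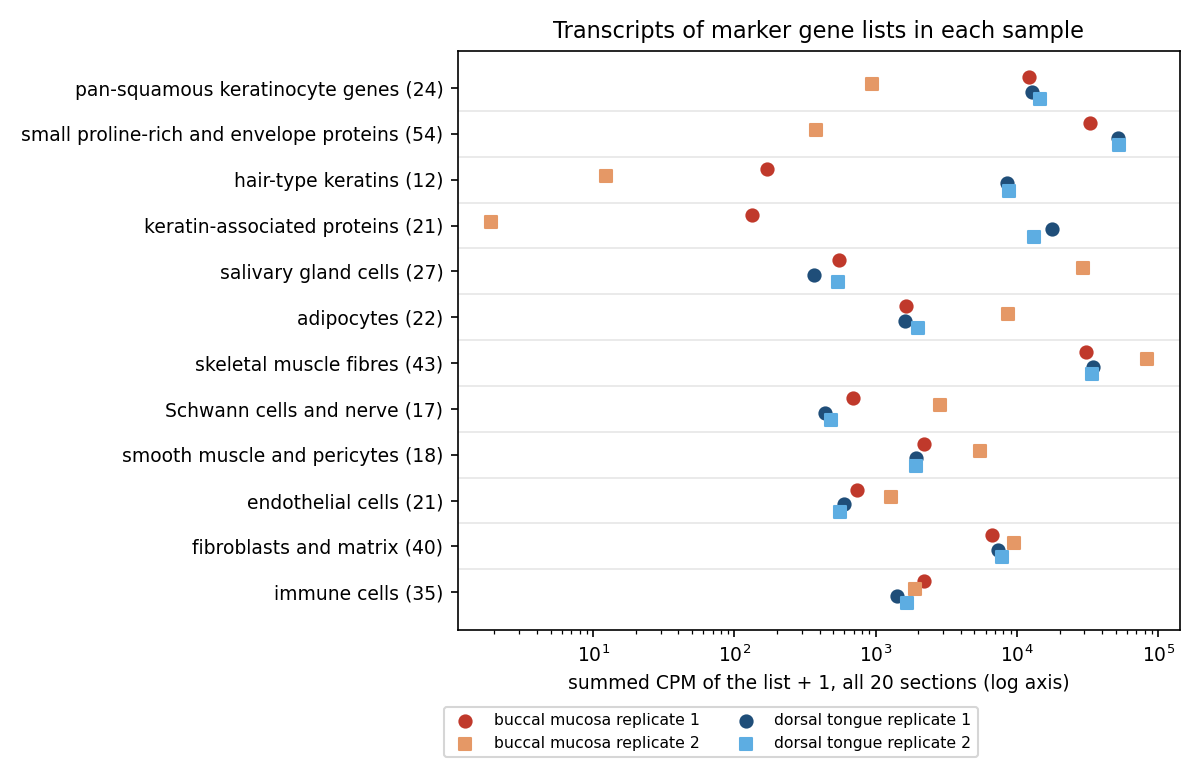
Summed CPM of each marker list, plus 1, on a log axis, in the 2 buccal mucosa and 2 dorsal tongue samples over all 20 sections; each point is 1 sample and the number in brackets is the tested members of the list. Buccal mucosa replicate 2 sits at 941 CPM of pan-squamous keratinocyte genes and 29398 CPM of salivary gland markers, while both buccal samples sit below both dorsal tongue samples for hair-type keratins and keratin-associated proteins.

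A gene was called where edgeR's adjusted p was under 0.05 and both buccal samples lay on the same side of both dorsal tongue samples. Of 18609 genes tested over all sections, 6 were called higher in buccal mucosa (0.0322%) and 37 lower (0.199%). Without the test, 4207 genes lay higher without overlap (22.6%) and 4066 lower (21.8%). All 43 calls were also made without buccal replicate 2, where the largest adjusted p was 0.0190 among the genes called higher and 0.0439 among those called lower, and all 43 were called by DESeq2. Without buccal replicate 2 edgeR called 71 genes higher and 133 lower, and without buccal replicate 1 it called 1767 and 2328. With any 1 dorsal tongue, hard palate or ventral tongue library left out, edgeR called 0 genes, with a smallest adjusted p of 0.0604 to 0.215 and 1086 to 2507 genes at an unadjusted p under 0.05, and all 43 kept their direction. Scaling by the pan-squamous keratinocyte genes instead of TMM gave a median log2 fold change over all genes of 2.90, against 0.03 with TMM, and 1682 calls higher and 78 lower. DESeq2 called 416 genes higher and 416 lower in all, so its repeat of the 43 calls is a weak check. A fit with the replicate number as a block kept 1 of the 43 calls, and the 4 samples compared alone gave 0.

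**Figure D2:**
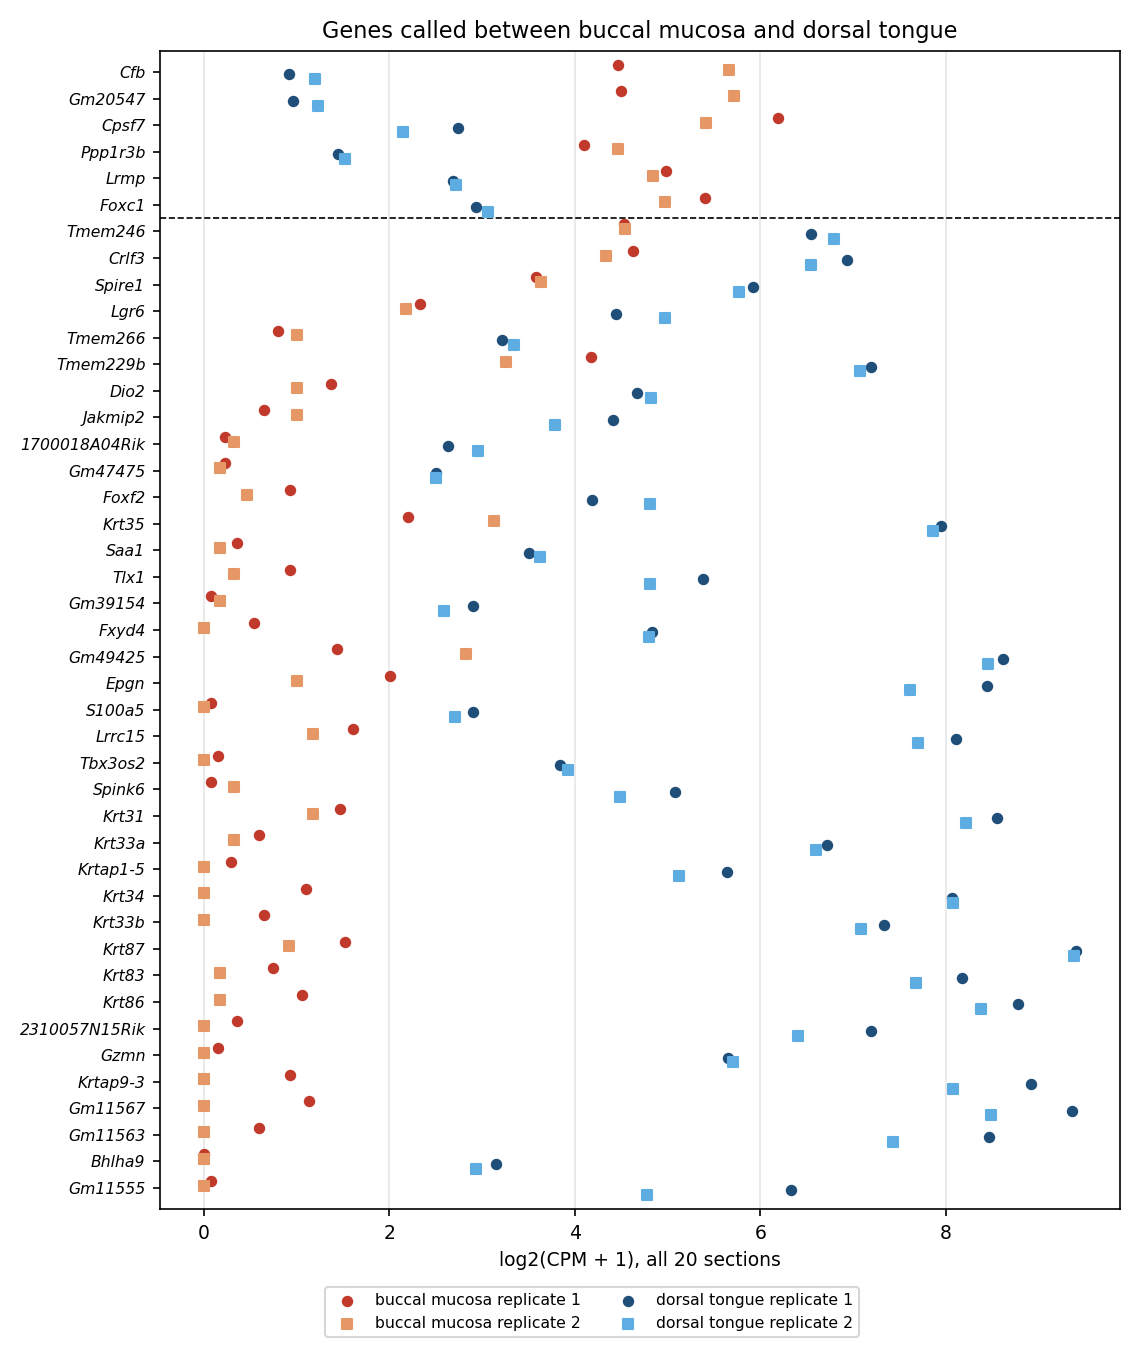
log2(CPM + 1) over all 20 sections for the 43 called genes, ordered by fold change; each point is 1 sample, and the dashed line separates the 6 genes higher in buccal mucosa (above) from the 37 lower (below). In each row both buccal mucosa points lie on 1 side of both dorsal tongue points, and most hair-type keratins sit near 0 in buccal mucosa.

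The hair-type keratins made the main contrast. Both buccal samples lay below both dorsal tongue samples for 11 of the 12 tested (91.7%), and 8 were called lower. Among all genes tested 21.8% lay lower without overlap and 0.199% were called lower. The median log2 fold change of the hair-type keratins was -8.15, against 0.03 over all genes tested. The median was -11.24 without buccal replicate 1 and -7.57 without buccal replicate 2. Krt87 (chr15:101431038-101438804, minus strand, GRCm38), a type II hair keratin, was at 1.88 and 0.885 CPM in buccal mucosa, against 676 and 666 CPM in dorsal tongue. Hard palate, at 0.582 and 0.194 CPM, lay below both buccal libraries, and ventral tongue was at 22.7 and 40.6 CPM. The buccal libraries held 33 and 7 UMIs of Krt87 and were separated from both dorsal tongue libraries by a log2 fold change of -8.87 ± 0.76 (SE; edgeR adjusted p = 0.0312). Krt33a (chr11:100011195-100016212, minus strand), a type I hair keratin, had the smallest adjusted p of all genes, 0.0154. It was at 0.513 and 0.253 CPM in buccal mucosa, against 104 and 96.0 CPM in dorsal tongue, a log2 fold change of -7.90 ± 0.47.

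The other called members repeated this pattern in both type I and type II partners of the hair filament. Krt86 was at 1.08 and 0.126 CPM in buccal mucosa, against 436 and 333 CPM in dorsal tongue (log2 fold change -9.12 ± 0.81, adjusted p = 0.0312). Krt31 was at 1.77 and 1.26 CPM in buccal mucosa, against 373 and 297 CPM in dorsal tongue (-7.76 ± 0.57, adjusted p = 0.0254). Krt35 was the called hair keratin with the highest buccal level, 3.59 and 7.71 CPM in buccal mucosa, against 246 and 232 CPM in dorsal tongue. Krt33b and Krt34 had no UMI in buccal replicate 2, and Krt83 had 1. The most abundant hair keratins of the tongue passed no test in the main fit. Krt36 was at 30.8 and 0.632 CPM in buccal mucosa, against 2614 and 2919 CPM in dorsal tongue (adjusted p = 0.179, and 0.0308 without buccal replicate 2). Krt84 was at 24.6 and 0.126 CPM in buccal mucosa, against 2452 and 2983 CPM in dorsal tongue (adjusted p = 0.192, and 0.00835 without buccal replicate 2). In both genes the 2 buccal libraries differed widely from each other while lying far below both tongue libraries. Krt32, at 98.1 and 0.126 CPM in buccal mucosa, against 287 and 32.4 CPM in dorsal tongue, was the 1 hair keratin whose groups overlapped. Krt36, Krt84 and Krt32 were singled out after their values were seen.

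The promoters of 3 neighbouring called type I genes are shown because these genes lie side by side on chromosome 11 and shared the contrast. Each sequence is the 250 bases before the start of the gene in the RefSeq annotation of GRCm38.p6, on the minus strand, at chr11:100050552-100050801 for Krt31, chr11:100029869-100030118 for Krt33b and chr11:100041555-100041804 for Krt34. Capitals mark the TATA motif TATAAA, searched on the given strand, and CTTTGAA, the core recognised by Lef1 and related factors, searched on both strands.
Krt31: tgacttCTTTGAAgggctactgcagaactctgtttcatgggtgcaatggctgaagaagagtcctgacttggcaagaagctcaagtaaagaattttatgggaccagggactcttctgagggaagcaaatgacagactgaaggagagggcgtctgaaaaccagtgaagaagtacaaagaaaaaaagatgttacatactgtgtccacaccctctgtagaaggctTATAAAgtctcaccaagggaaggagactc
Krt33b: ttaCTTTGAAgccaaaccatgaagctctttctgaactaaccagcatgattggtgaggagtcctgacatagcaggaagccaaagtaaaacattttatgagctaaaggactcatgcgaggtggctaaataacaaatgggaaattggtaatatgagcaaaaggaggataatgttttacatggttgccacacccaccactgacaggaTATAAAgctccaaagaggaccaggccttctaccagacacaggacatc
Krt34: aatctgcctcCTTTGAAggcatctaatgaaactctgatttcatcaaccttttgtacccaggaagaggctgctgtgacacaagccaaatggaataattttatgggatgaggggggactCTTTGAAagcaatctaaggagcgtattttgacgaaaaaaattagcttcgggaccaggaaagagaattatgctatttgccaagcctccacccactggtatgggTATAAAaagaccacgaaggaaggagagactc

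TATAAA began 29, 47 and 31 bases before the start in Krt31, Krt33b and Krt34. CTTTGAA began 244 and 247 bases before the start in Krt31 and Krt33b, and 240 and 133 bases before it in Krt34. In windows of 300 bases, the 250 shown plus the first 50 of the gene, TATAAA was found in 4 of the 6 hair-type keratins with a RefSeq promoter, 24 of 26 Krtap genes and 9.77% of 27025 genes. CTTTGAA was found in 4 of the 6 hair-type keratins, 4 of 26 Krtap genes and 5.93% of all. Of the genes called lower over all sections or over sections 1 to 5, 26 had a promoter, and 15 of these held TATAAA and 5 held CTTTGAA. A match describes the letters only.

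Keratin-associated proteins showed the same split. All 21 tested lay lower in buccal mucosa without overlap, against 21.8% of all genes, and 2 were called, against 0.199% of all genes. Of the 21, 15 had no UMI in buccal replicate 2 and 3 had none in replicate 1. A gene near 0 in both buccal libraries passes the filter on low counts only through other sites. The share lying lower was thus in part fixed by the filter and is no separate support. The same applies to the hair-type keratins, where 3 of 12 had no UMI in buccal replicate 2. The median log2 fold change was -8.81, and -8.75 when the 3 genes without a UMI in either buccal library were put at the bound that 3 UMIs in each buccal library allow. It was -13.82 without buccal replicate 1 and -7.96 without buccal replicate 2. Summed over the list they were at 132 and 0.885 CPM in buccal mucosa, against 17738 and 13255 CPM in dorsal tongue. Krtap9-3 was at 0.912 and 0 CPM in buccal mucosa, against 480 and 268 CPM in dorsal tongue (log2 fold change -9.42 ± 1.14, adjusted p = 0.0396). Krtap1-5 was at 0.228 and 0 CPM in buccal mucosa, against 48.8 and 33.8 CPM in dorsal tongue. Gm11567, a predicted gene within the Krtap cluster on chromosome 11, was at 1.20 and 0 CPM in buccal mucosa, against 654 and 356 CPM in dorsal tongue (-9.49 ± 1.20, adjusted p = 0.0468). The most abundant member, Krtap13, was at 17.6 and 0 CPM in buccal mucosa, against 2150 and 2119 CPM in dorsal tongue, with an adjusted p of 0.205. Values of single members of these gene families are uncertain, because the sources used here do not say how reads shared by near-identical copies were counted.

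By position, the cluster at chr11:99550130-100105626 held 41 tested genes, of which 40 lay lower in buccal mucosa without overlap and 10 were called. The keratin cluster at chr15:101431038-101532820 held 6, of which 6 lay lower and 4 were called. These spans were drawn around 26 and 5 members of the hair-type keratin and Krtap lists. The counts by position thus largely repeat those of the lists and are no separate support. Among all genes tested 21.8% lay lower and 0.199% were called lower. Hair-type keratins and Krtap genes together had 5255 and 100 UMIs in buccal replicates 1 and 2, against 499181 and 390234 in dorsal tongue. Of the 100 UMIs in buccal replicate 2, 71 lay in section 1, a section with 4.66% of that library's UMIs. Sections 1 to 5 held 29.9% and 86% of these UMIs in the buccal libraries, against 31.0% and 31.7% in the tongue libraries, while holding 21.4% and 24.4% of all UMIs in the buccal libraries, against 17.5% and 20.7% in the tongue libraries.

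A ligand, a receptor and an enzyme of hormone activation were among the other genes called lower. Epgn, which encodes the EGF receptor ligand epigen (chr5:91027464-91035215, plus strand), was at 3.02 and 1.01 CPM in buccal mucosa, against 347 and 194 CPM in dorsal tongue (log2 fold change -7.01 ± 0.65, adjusted p = 0.0339). Hard palate at 30.2 and 40.4 CPM and ventral tongue at 33.4 and 31.3 CPM lay between, so that buccal mucosa was the lowest site and dorsal tongue the highest. Lrrc15, a leucine-rich repeat membrane protein (chr16:30269302-30283256, minus strand), was at 2.05 and 1.26 CPM in buccal mucosa, against 275 and 207 CPM in dorsal tongue (-7.15 ± 0.64, adjusted p = 0.0312). Lgr6, a receptor for R-spondins that marks stem cells of several epithelia, was at 4.05 and 3.54 CPM in buccal mucosa, against 20.8 and 30.3 CPM in dorsal tongue (-2.74 ± 0.31, adjusted p = 0.0367). Per 1000 CPM of pan-squamous keratinocyte genes Lgr6 stood at 0.332 and 3.76 in buccal mucosa, against 1.63 and 2.09 in dorsal tongue, so its groups overlapped on that scale and its fold change under keratinocyte scaling was 0.08. Dio2, the deiodinase that activates thyroid hormone, was at 1.60 and 1.01 CPM in buccal mucosa, against 24.5 and 27.2 CPM in dorsal tongue (adjusted p = 0.0387).

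Gzmn, a granzyme, was nearly absent from the cheek libraries. Hard palate also had 0 CPM of it in both libraries, and ventral tongue had 9.15 and 13.5 CPM. Gzmn had 2 and 0 UMIs in buccal mucosa, 0.114 and 0 CPM, against 49.3 and 51.3 CPM in dorsal tongue (adjusted p = 0.0312). Pooled over replicates it was 549-fold higher in dorsal tongue, with a 95% exact interval of 152-fold to 4533-fold that covers counting error only. Spink6, an inhibitor of kallikrein proteases, was at 0.0570 and 0.253 CPM in buccal mucosa, against 32.8 and 21.4 CPM in dorsal tongue (adjusted p = 0.0367). Bpifa5, of a family of secreted lipid-binding proteins, was at 18.4 and 0 CPM in buccal mucosa, against 2174 and 2249 CPM in dorsal tongue. Its adjusted p was 0.205, and 0.00835 without buccal replicate 2.

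Transcription factors were called lower at low absolute levels. Tlx1, a homeobox factor, was at 0.912 and 0.253 CPM in buccal mucosa, against 40.5 and 27.0 CPM in dorsal tongue (log2 fold change -5.70 ± 0.55, adjusted p = 0.0367). Foxf2, a forkhead factor of oral mesenchyme in the embryo, was at 0.912 and 0.379 CPM in buccal mucosa, against 17.2 and 27.0 CPM in dorsal tongue (-4.99 ± 0.55, adjusted p = 0.0367). For both genes ventral tongue was close to dorsal tongue, with 23.5 and 25.8 CPM of Tlx1 and 20.7 and 28.3 CPM of Foxf2. Bhlha9, a basic helix-loop-helix factor, had no UMI in either buccal library, against 7.90 and 6.66 CPM in dorsal tongue, which is at least 26.4-fold lower when 3 UMIs are allowed in each buccal library. Tbx3os2, a transcript next to the T-box gene Tbx3, was at 0.114 and 0 CPM in buccal mucosa, against 13.4 and 14.2 CPM in dorsal tongue (adjusted p = 0.0387).

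Further genes called lower had smaller fold changes. Tmem229b was at 16.99 and 8.60 CPM in buccal mucosa, against 145 and 133 CPM in dorsal tongue (log2 fold change -3.43 ± 0.39, adjusted p = 0.0367). Spire1, an actin nucleator, was at 11 and 11.4 CPM in buccal mucosa, against 59.5 and 53.7 CPM in dorsal tongue (-2.34 ± 0.24, adjusted p = 0.0367). Tmem246 was at 22.1 and 22.3 CPM in buccal mucosa, against 92.3 and 110 CPM in dorsal tongue (adjusted p = 0.0367). In all 3 genes both buccal samples lay far below both tongue samples. Crlf3 was at 23.8 and 19.2 CPM in buccal mucosa, against 122 and 92.5 CPM in dorsal tongue (adjusted p = 0.0396). Spire1, Tmem246, Crlf3, Tmem266, Jakmip2 and Lgr6 overlapped between the sites when expressed per keratinocyte transcript. The other 31 of the 37 genes called lower were separated on that scale. With keratinocyte scaling in the fit, 20 of the 37 were called lower and all 6 of the genes called higher were called again. That scaling moved the median log2 fold change over all genes to 2.90, so the 6 repeated calls are no separate support. Dorsal tongue also lay above every hard palate and ventral tongue sample in 32 of the 37, and buccal mucosa below every one of them in 17.

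The genes called higher in buccal mucosa numbered 6. Cpsf7, a subunit of the cleavage factor that helps choose the end of messenger RNAs (chr19:10525266-10547653, plus strand), was at 71.8 and 41.6 CPM in buccal mucosa, against 5.68 and 3.44 CPM in dorsal tongue (log2 fold change 3.63 ± 0.41, adjusted p = 0.0367). Hard palate at 6.79 and 7.71 CPM and ventral tongue at 3.43 and 2.92 CPM lay near dorsal tongue. Cfb, complement factor B of the alternative pathway (chr17:34856374-34862518, minus strand), was at 21.1 and 49.7 CPM in buccal mucosa, against 0.895 and 1.30 CPM in dorsal tongue (5.0 ± 0.55, adjusted p = 0.0367). The called Gm20547 (chr17:34856412-34882042) overlaps Cfb on the same strand and had nearly equal levels, so the 2 calls are not separate observations.

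Foxc1, a forkhead factor of neural crest mesenchyme (chr13:31806633-31812476, plus strand), was at 41.4 and 30.5 CPM in buccal mucosa, against 6.63 and 7.34 CPM in dorsal tongue (log2 fold change 2.36 ± 0.28, adjusted p = 0.0387). Foxf2 lies on the same chromosome at chr13:31625816-31631403 and moved the opposite way. Ppp1r3b, which directs protein phosphatase 1 to glycogen, was at 16.1 and 21.1 CPM in buccal mucosa, against 1.74 and 1.86 CPM in dorsal tongue (3.36 ± 0.37, adjusted p = 0.0367). Lrmp, a membrane protein of the endoplasmic reticulum, was at 30.6 and 27.7 CPM in buccal mucosa, against 5.42 and 5.59 CPM in dorsal tongue (2.40 ± 0.27, adjusted p = 0.0367). All 6 genes remained higher without overlap per keratinocyte transcript, an outcome that was fixed in advance. The keratinocyte sums used as divisor, 12194 and 941 CPM in buccal mucosa, lay below both sums of dorsal tongue, 12777 and 14479 CPM. Buccal mucosa also lay above every hard palate and ventral tongue sample in 5 of the 6.

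Sections 1 to 5 gave fewer calls in the same direction. Of 14317 genes tested there, 1 was called higher in buccal mucosa (0.00698%) and 11 lower (0.0768%), and 2787 lay higher without overlap (19.5%) and 2798 lower (19.5%). These sections are part of the full sums, so the 2 sets of calls are not independent. Of the 43 genes called over all sections 41 were tested in sections 1 to 5, and all 41 kept their side without overlap. Over both sums 2112 genes lay higher (14.8%) and 2314 lower (16.2%), while 28 lay on opposite sides. All 12 calls were also made without buccal replicate 2, and leaving out 1 library of another site left 0 to 5 calls.

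Meis2, a homeobox factor that partners Hox proteins (chr2:115863064-116065839, minus strand), was the gene called higher. In sections 1 to 5 it was at 59.1 and 44.6 CPM in buccal mucosa, against 5.37 and 5.16 CPM in dorsal tongue (log2 fold change 3.29 ± 0.33, adjusted p = 0.0298). Over all sections it was at 50.3 and 40.2 CPM in buccal mucosa, against 12.2 and 8.30 CPM in dorsal tongue (adjusted p = 0.0721). Dorsal tongue was the lowest site in sections 1 to 5, but buccal mucosa was not the highest, since hard palate had 133 and 121 CPM. Hephl1, a ferroxidase, was called lower in sections 1 to 5, at 4.29 and 2.88 CPM in buccal mucosa, against 55.8 and 62.8 CPM in dorsal tongue (-4.0 ± 0.39, adjusted p = 0.0298). Over all sections its adjusted p was 0.0542. The 10 genes called lower in both sums were Krt31, Krt33a, Krt34, Krt83, Krt87, Krtap9-3, 2310057N15Rik, Gzmn, Lrrc15 and Epgn.

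**Figure D3:**
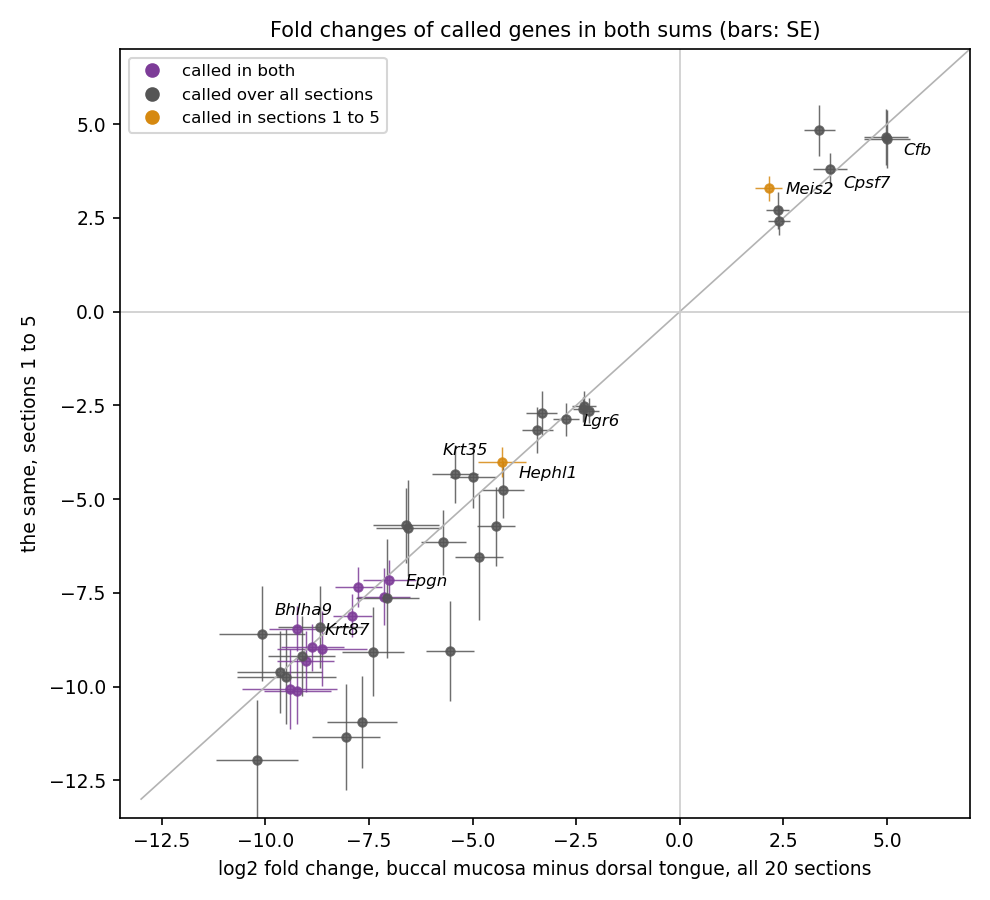
log2 fold change, buccal mucosa minus dorsal tongue, over all 20 sections (x axis) and over sections 1 to 5 (y axis) for the 43 genes called in either sum and tested in both; bars are SE and the line marks equal values. All 43 have the same sign in both sums, and 10 were called in both.

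Through the depth of the block Krt87, Lrrc15 and Epgn were graded in dorsal tongue. Krt87 was at 1048, 777, 536 and 263 CPM in sections 1 to 5, 6 to 10, 11 to 15 and 16 to 20 of dorsal tongue replicate 1, and Lrrc15 at 481, 306, 198 and 104 CPM. In dorsal tongue replicate 2 Krt87 was at 1038, 654, 473 and 299 CPM. Other genes called lower ran otherwise, such as Foxf2 at 9.94, 12.3, 16.2 and 20.3 CPM in the same bins of dorsal tongue replicate 1. In replicate 1 of each site Meis2 was highest in the earlier sections of the cheek and lowest there in the tongue. It was at 60.9, 67.8, 31.8 and 18.2 CPM in buccal replicate 1, against 4.84, 8.68, 13.3 and 14.0 CPM in dorsal tongue replicate 1. In buccal replicate 2 the level of Meis2 in sections 1 to 5, given above, was close to that over all sections. The depth change of Meis2 was not called different between the sites. Cpsf7 was nearly level in the cheek, at 70.0, 81.5, 70.9 and 62.4 CPM in buccal replicate 1 and 52.3, 39.3, 38.8 and 38.1 CPM in replicate 2. These values are CPM of the UMIs in those sections alone, without TMM scaling. The change from sections 6 to 20 to sections 1 to 5 differed between the sites for 2 genes of 16594 tested (0.0121%), Chil4 and Krt73.

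**Figure D4:**
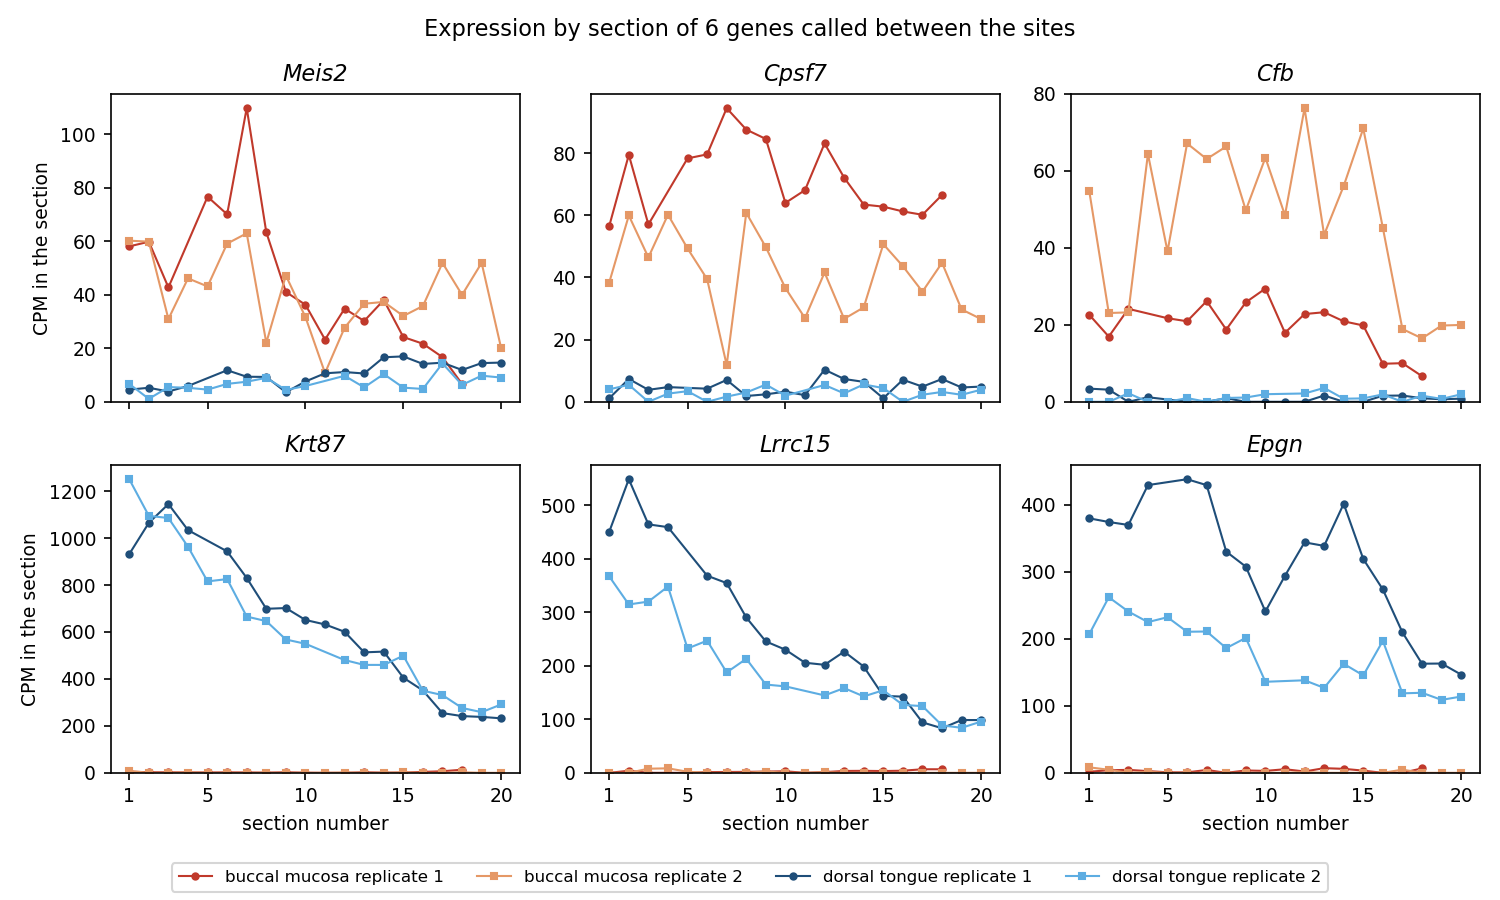
CPM in each section (y axis) against section number (x axis) for 6 genes, with 1 line per sample and sections under 100000 UMIs left out. Krt87, Lrrc15 and Epgn fall with section number in both dorsal tongue samples and stay near 0 in buccal mucosa, while Cpsf7 and Cfb are higher in both buccal samples along the block.

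Cornified envelope genes, which build the protein shell of the outermost cells, lay mostly lower in buccal mucosa but none was called. Of 54 tested, 38 lay lower without overlap (70.4%, against 21.8% of all genes) and 1 higher (1.85%, against 22.6%). Their median log2 fold change was -1.76, and -0.87 without buccal replicate 2. Filaggrin, encoded by Flg, was at 45.3 and 1.64 CPM in buccal mucosa, against 707 and 655 CPM in dorsal tongue (adjusted p = 0.239). Involucrin, encoded by Ivl, was at 0.456 and 0.759 CPM in buccal mucosa, against 11.7 and 13.2 CPM in dorsal tongue (adjusted p = 0.0553). Loricrin, encoded by Lor, was at 3303 and 12.3 CPM in buccal mucosa, against 3982 and 4286 CPM in dorsal tongue. For Flg and Ivl both buccal libraries lay far below the tongue, whereas for Lor buccal replicate 1 lay close to it in CPM. Lor reached 4101 UMIs in 1 section, near the value at which counts stopped, so its CPM understate the difference. In reads per 1000000 reads Lor was at 7570 and 4.65 in buccal mucosa, against 12828 and 11913 in dorsal tongue. Flg and Ivl were singled out after their values were seen.

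Of 22 oral and epidermal keratins 14 lay lower and 1 higher, with a median of -1.16, and of 18 basal and hemidesmosome genes 14 lay lower and 1 higher, with a median of -1.12. Without buccal replicate 2 these medians were -0.52 and -0.29. Desmosome and junction genes had 9 lower and 1 higher of 23, with a median of -0.90, and 0.01 without buccal replicate 2. Beside these medians stand the 941 CPM of pan-squamous genes in buccal replicate 2, whose part in them was not tested. The highest UMI count of 1 gene in 1 section was 4096 and 4122 in the buccal libraries, against 4146 and 4096 in the tongue libraries, so counts stopped near 4096. This was not confined to keratins, since Lor, mt-Nd4, Myh4, Atp2a1 and Tff2 reached 4101, 4137, 4087, 4074 and 4102 UMIs. The ceiling compresses differences of the most abundant genes and makes their CPM depend on library depth. Defence genes had 18 lower (40%) and 6 higher (13.3%) of 45. Beside the counts of these lists stand the shares over all genes tested, 21.8% lower and 22.6% higher. Defb3, a beta-defensin, was at 1.31 and 0.126 CPM in buccal mucosa, against 117 and 145 CPM in dorsal tongue (adjusted p = 0.117).

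**Figure D5:**
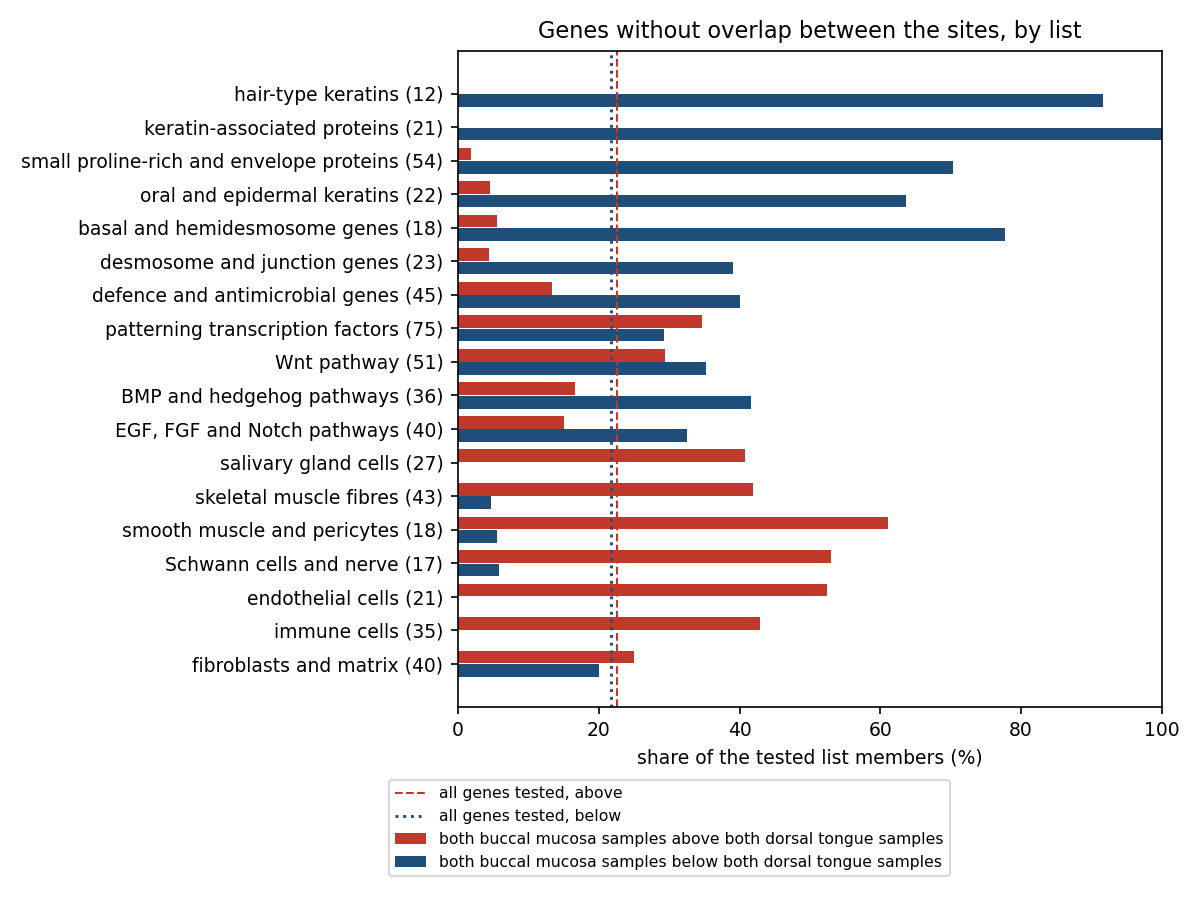
Share of the tested members of each list (x axis, %) whose buccal mucosa samples both lay above (red) or both below (blue) both dorsal tongue samples over all 20 sections, with the number tested in brackets; dashed and dotted lines give the same shares over all 18609 genes, 22.6% and 21.8%. Hair-type keratins and keratin-associated proteins stand at 91.7% and 100% below, while patterning transcription factors and Wnt genes are split between both sides.

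Patterning transcription factors, which keep a record of embryonic position, lay on both sides. Of 75 tested, 26 lay higher in buccal mucosa and 22 lower without overlap, with Foxc1 called higher and Foxf2 lower. These are 34.7% and 29.3%, against 22.6% and 21.8% of all genes tested. Among those not called, Irx5 was at 27.4 and 68.3 CPM in buccal mucosa, against 1.79 and 1.24 CPM in dorsal tongue (adjusted p = 0.0648). Shox2 was at 14.1 and 19.98 CPM in buccal mucosa, against 1.11 and 1.02 CPM in dorsal tongue (adjusted p = 0.0801). On the other side, Hand2 was at 2.28 and 1.52 CPM in buccal mucosa, against 23.3 and 17.7 CPM in dorsal tongue (adjusted p = 0.0538). The T-box factor Tbx3 was at 23.6 and 31.9 CPM in buccal mucosa, against 115 and 105 CPM in dorsal tongue (adjusted p = 0.0825). Hoxc13, a regulator of hair keratin genes in skin, was at 0.570 and 3.41 CPM in buccal mucosa, against 55.0 and 80.4 CPM in dorsal tongue (adjusted p = 0.0973). Of its 27 UMIs in buccal replicate 2, 26 lay in sections 1 to 5. There Hoxc13 was at 0.268 and 12.5 CPM in buccal mucosa, against 60.5 and 113 CPM in dorsal tongue. In each of these genes the groups did not overlap over all sections. These 5 genes were singled out after their values were seen, as were those of the next paragraph other than Lgr6 and Epgn.

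Of 51 Wnt pathway genes 15 lay higher (29.4%) and 18 lower (35.3%), with Lgr6 called. The shares over all genes tested were 22.6% higher and 21.8% lower. Lef1, the factor that acts with beta-catenin, was at 1.31 and 1.77 CPM in buccal mucosa, against 22.5 and 53.0 CPM in dorsal tongue (adjusted p = 0.0801). The secreted Wnt modulator Sfrp2 lay the other way, at 17.8 and 31.1 CPM in buccal mucosa, against 0.474 and 1.92 CPM in dorsal tongue (adjusted p = 0.0907). Of 36 BMP and hedgehog genes 15 lay lower (41.7%) and 6 higher (16.7%), with none called. Bambi, a decoy receptor for BMP signals, was at 4.90 and 5.94 CPM in buccal mucosa, against 48.8 and 57.0 CPM in dorsal tongue (adjusted p = 0.0547). Hhip, which binds hedgehog ligands, was at 0.741 and 1.90 CPM in buccal mucosa, against 20 and 18.7 CPM in dorsal tongue (adjusted p = 0.0607). Of 40 EGF, FGF and Notch genes 13 lay lower (32.5%) and 6 higher (15%), with Epgn called.

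No member of the lists of other cell types was called. Of 35 immune genes 15 lay higher without overlap (42.9%, against 22.6% of all genes) and 0 lower (against 21.8%). Their median log2 fold change was 0.61, and 0.61 also without buccal replicate 2. The other 20 overlapped between the sites, among them Cd74 and H2-Aa. Cd74 was at 522 and 263 CPM in buccal mucosa, against 204 and 322 CPM in dorsal tongue. H2-Aa was at 417 and 270.95 CPM in buccal mucosa, against 225 and 271.15 CPM in dorsal tongue. The macrophage receptor Cd163 was at 21.1 and 27.6 CPM in buccal mucosa, against 7.42 and 9.03 CPM in dorsal tongue (adjusted p = 0.341). The mast cell protease Mcpt4 was at 28.6 and 63.6 CPM in buccal mucosa, against 11.8 and 12.5 CPM in dorsal tongue (adjusted p = 0.260). Endothelial genes had 11 higher (52.4%) and 0 lower of 21, and smooth muscle and pericyte genes 11 higher (61.1%) and 1 lower of 18. Schwann cell genes had 9 higher of 17 (52.9%), salivary gland genes 11 of 27 (40.7%) and muscle fibre genes 18 of 43 (41.9%). Fibroblast and matrix genes had 10 higher and 8 lower of 40 (25% and 20%), near the shares over all genes. Several of these medians rested on buccal replicate 2. Without it the median log2 fold change was 0.60 for salivary gland genes, against 3.30 with it, and that of Schwann cell genes was 0.32, against 1.34. Likewise it was -0.16 for muscle fibre genes, against 0.76, and -0.05 for adipocyte genes, against 1.54. Endothelial genes had a median of 0.41 without that library, against 0.75, and smooth muscle and pericyte genes 0.73, against 1.41. The summed level of most of these lists was highest in buccal replicate 2, and that of the immune list was 2184 and 1888 CPM in buccal mucosa, against 1404 and 1672 CPM in dorsal tongue. Cd163 and Mcpt4 were singled out after their values were seen.

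The largest separations upwards outside the called genes came from several tissues. Oit1, a secreted protein of the Fam3 family, was at 19.1 and 250 CPM in buccal mucosa, against 1.84 and 2.48 CPM in dorsal tongue (adjusted p = 0.133). The muscle myosin Myh2 was at 89.1 and 231 CPM in buccal mucosa, against 11.4 and 16.3 CPM in dorsal tongue (adjusted p = 0.294). Mal, a membrane raft protein of epithelia and myelin, was at 140 and 43.7 CPM in buccal mucosa, against 9.79 and 9.20 CPM in dorsal tongue (adjusted p = 0.158). Bglap3, related to osteocalcin, came nearest to the threshold, at 46.6 and 58.2 CPM in buccal mucosa, against 11.2 and 10.3 CPM in dorsal tongue (adjusted p = 0.0542). The others by the same rule, Tmem233, Bace2, Ceacam1, Pi16, Hoxd8, Tgm2 and Actc1, had adjusted p-values of 0.0896 to 0.27. In sections 1 to 5 the resistin-like Retnla was at 84.6 and 763 CPM in buccal mucosa, against 4.77 and 13.6 CPM in dorsal tongue (adjusted p = 0.132). There the desaturase Scd2 was at 412 and 481 CPM in buccal mucosa, against 91.5 and 116 CPM in dorsal tongue.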

How the data were processed

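Mouse oral mucosa was sectioned, and CEL-seq2, which counts transcripts at their ends, was run on single sections with a NextSeq500, per the labels' protocols. The submitters' processing notes name Trim Galore 0.6.10, STAR 2.7.9a and GRCm38. No counting program is given in the sources used here. The authors deposited counts of UMIs and of reads, and estimated counts of transcripts, per gene and section. UMI counts were used unless stated. Estimated counts were rounded to whole numbers for an alternative fit. Of 33549 entries 413 named several genes (kept in library sizes, never named), and 33023 of the remaining 33136 matched a symbol.

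UMI counts summed per sample were filtered (filterByExpr), TMM-scaled and tested for buccal mucosa against dorsal tongue by the quasi-likelihood F-test of edgeR 4.0.16 in R 4.3.3, with Benjamini-Hochberg adjustment over all genes tested, and fold changes are buccal mucosa minus dorsal tongue. All 8 samples entered the fit so that the 4 sites share 1 estimate of the spread. The SE was derived as the fold change divided by the square root of F. Another fit asked whether the difference between sections 1 to 5 and 6 to 20 depends on the site, with the sample as a block. The procedure was tested on simulated data. Alternatives were DESeq2 1.42.0, other size factors, scaling by 24 pan-squamous keratinocyte genes, read and transcript counts, robust spread, no filter, only the 4 samples compared, a replicate block, other section ranges and leaving out each sample.

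The members and gene lists were chosen with earlier results of these data known. Genes named in the text were the 12 per direction (6 in sections 1 to 5) with the largest gap between the nearest samples of the groups, log2((CPM + 1)/(CPM + 1)), at a mean of 50 CPM or more in the higher group, called genes first and at most 4 hair or predicted genes. Called members of each list were added, and others are stated as singled out. Called genes outside both were chosen after their values were seen. A count of 0 allows up to 3 UMIs, for counting error only. Promoters came from RefSeq.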

Additional observations from a re-analysis of the deposited data

Results flagged for a closer look

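The difference between sections 1 to 5 and sections 6 to 20 was compared between the sites for 16594 genes, and it differed for 2 (0.0121%; 704 at an unadjusted p under 0.05). Chil4, a chitinase-like secreted protein, was flagged because its depth change differed by 4.20 ± 0.31 on the log2 scale, buccal mucosa minus dorsal tongue (edgeR adjusted p = 0.00507). It was at 316 and 0 CPM in sections 1 to 5 of buccal mucosa, against 5.32 and 34.6 CPM in dorsal tongue, and at 233 and 0 CPM in sections 6 to 20 of buccal mucosa, against 52.7 and 537 CPM in dorsal tongue. Its call was lost without buccal replicate 1 (adjusted p = 1) and without dorsal tongue replicate 2 (adjusted p = 0.192). Krt73, a keratin of the inner root sheath of hair, was flagged with a difference of 7.99 ± 0.79 (adjusted p = 0.0287). It was at 0.274 and 43.1 CPM in sections 1 to 5 of buccal mucosa, against 3.45 and 3.69 CPM in dorsal tongue, and at 0 and 0.163 CPM in sections 6 to 20 of buccal mucosa, against 3.95 and 4.73 CPM in dorsal tongue. Its call was lost without buccal replicate 2 (adjusted p = 0.861), without dorsal tongue replicate 1 (0.322) and without dorsal tongue replicate 2 (0.192).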

How the results depend on the processing

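Counts are given as higher and lower in buccal mucosa. Over all sections the 6 and 37 calls became 416 and 416 with DESeq2, 730 and 688 with no filter on low counts, 1682 and 78 with keratinocyte scaling, 2 and 1 with the replicate block and 0 and 0 with the 4 samples compared alone (smallest adjusted p = 0.348, 1496 genes at an unadjusted p under 0.05). Leaving out 1 sample gave 0 to 1767 and 0 to 2328. In sections 1 to 5 the 1 and 11 calls became 189 and 215 with DESeq2, 410 and 394 with no filter, 823 and 82 with keratinocyte scaling, 0 and 0 with the replicate block or the 4 samples alone (1377 and 843 genes at an unadjusted p under 0.05), 5 and 42 in sections 1 to 3 and 11 and 69 in sections 1 to 10. Leaving out 1 sample gave 0 to 1705 and 0 to 1853. The 2 depth calls became 7 with keratinocyte scaling, 136 with no filter, 0 with the 4 samples alone, 0 against sections 16 to 20 and 0 to 68 with 1 sample left out. The cause of these shifts was not tested. RLE size factors, transcript counts, read counts and robust spread gave 5 or 6 higher and 32 to 38 lower. All 43 called genes kept their direction under every alternative except keratinocyte scaling, where 39 did, and the fold changes of Spire1, Tmem246, Crlf3 and Lgr6 became 0.62, 0.77, 0.48 and 0.0816. Where a sample was left out of its site, the lone sample was assumed to vary like the other groups. Equal replicate numbers were not taken to pair the samples, since the labels give no pairing. The deviations of same-numbered samples correlated at -0.0798 between buccal mucosa and dorsal tongue and at -0.255 to 0.532 over the 6 pairs of sites. The highest, 0.532, was that of dorsal and ventral tongue. These correlations cannot settle whether samples were paired, because buccal replicate 2 stood apart from the other libraries. With the replicate block 1 of the 43 calls was kept. Depth limits genes at a few UMIs, and buccal replicate 2 is the shallowest library.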
